A study of Mus musculus with 4 samples.

Results

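The genes described here are 10 enzymes with which the liver makes bile acids from cholesterol and joins them to an amino acid: Cyp7a1, Cyp8b1, Cyp27a1, Cyp7b1, Hsd3b7, Amacr, Akr1d1, Acox2, Slc27a5 and Baat. They were chosen by name, as every probe that is not a control and carries 1 of these symbols on the array, and they are 10 of the 30139 gene names that the array holds. They had 11 probes, 1 each and 2 for Slc27a5. RNA came from whole liver of mice that were female, C57B/6 and 8 to 10 weeks old, taken after a fast of 4 hours and 1 week after an adeno-associated virus. The virus was AAV_Cre, given to make the liver knockout of Trib1, or AAV_Null, given to the mice called wild type, and both groups carried Trib1 as homozygous floxed alleles. Each of 4 two-colour Agilent arrays took an RNA labelled AAV_Cre and an RNA labelled AAV_Null, in opposite dyes. Arrays 1 and 2 had AAV_Cre in Cy5, and arrays 3 and 4 had it in Cy3. The labels do not give the promoter that drives Cre, the floxed exons, or whether an RNA came from 1 mouse or a pool. The p-values therefore measure a spread between arrays, and only between arrays of the same dye orientation. A fitted dye effect takes up the difference between the 2 orientations.

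Bile acids are detergents that carry fat and cholesterol, and their synthesis in hepatocytes is a main route by which cholesterol leaves the body. The classical route opens with Cyp7a1 in the endoplasmic reticulum, and an alternative route opens with Cyp27a1 in mitochondria followed by Cyp7b1. Hsd3b7 and Akr1d1 then modify the sterol rings, Cyp8b1 directs intermediates to cholic acid, the side chain is shortened in peroxisomes with Amacr and Acox2, and Slc27a5 and Baat carry out conjugation. The bile acid receptor FXR, encoded by Nr1h4, restrains Cyp7a1 and Cyp8b1 through the repressor SHP, encoded by Nr0b2, and through the intestinal hormone FGF15, which acts on Fgfr4 in hepatocytes.

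Each value below rests on a probe of 60 bases, and the last 30 bases of 7 of the probes are printed here, 5′ to 3′. They include both probes of Slc27a5, whose values differed, and the 3 probes that hold the hexamer AATAAA, the polyadenylation signal of many transcripts, which is set in capitals.
Amacr: ctgcttatcagaacctctgattgaggaaaa
Slc27a5, brighter probe: agtacttagagAATAAActtgaatgtgtat
Slc27a5, second probe: gtgcgtgagggttttgatgtggggatcatt
Cyp8b1: gttaggctacatgcttcagtttctgaggga
Cyp7a1: gaactgaatgtatccacataccttcccatg
Cyp7b1: tcacaaaacctgtcataaAATAAAgcagtg
Hsd3b7: atctggccaagcctagAATAAAatcctttt

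The whole probes lie on mm9, per the array files, at chr15:10925139-10925198 on the plus strand for Amacr, chr7:13573701-13573760 on the minus strand for the brighter Slc27a5 probe and chr7:13573924-13573983 on the minus strand for the second. Those of Cyp8b1, Cyp7a1 and Cyp7b1 lie at chr9:121824595-121824654, chr4:6193456-6193515 and chr3:17972286-17972345, all on the minus strand, and that of Hsd3b7 lies at chr7:134947251-134947310 on the plus strand. The probes not printed lie at chr1:74782203-74782262 on the plus strand for Cyp27a1, chr6:37518113-37518172 on the plus strand for Akr1d1, chr14:9058141-9058200 on the minus strand for Acox2 and chr4:49502933-49502992 on the minus strand for Baat. AATAAA stood, in the sense letters, in 3 of the 11 probes of these genes (27.3%) and in 12.6% of the 39429 probes of the array. No probe of these genes shared a run of 20 bases with the probe of another gene. An exon or UTR was not assigned, since no mm9 annotation was used here.

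The RefSeq table of GRCm38.p6 held a promoter for 5 of the 10 genes: Cyp8b1, Akr1d1, Acox2, Cyp27a1 and Hsd3b7. It was searched on both strands for a TATA box, spelled as TATAAA, for CAAAGTCCA, an element of the kind bound by HNF4, for CAAGGTCA, the kind bound by NR5A2, and for TTGCNNAA, a core of C/EBP sites with N for any base. The 250 bases before the start of Cyp8b1, the gene with the largest difference among the 10, are shown at chr9:121916306-121916555 on the minus strand, with CAAAGTCCA at 67 to 59 bases before the start and TATAAA at 31 to 26 bases before it in capitals.
Cyp8b1 promoter: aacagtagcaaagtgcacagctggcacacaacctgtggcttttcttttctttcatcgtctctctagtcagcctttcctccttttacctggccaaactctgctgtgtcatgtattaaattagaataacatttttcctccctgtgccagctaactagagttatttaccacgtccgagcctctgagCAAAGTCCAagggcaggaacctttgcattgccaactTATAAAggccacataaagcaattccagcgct
CAAAGTCCA stood in 0.384% and TATAAA in 12.4% of all 32851 promoters of this length. TTGCNNAA stood in 1 of the 2 Acox2 promoters as TTGCCCAA, 146 to 139 bases before the start, in the Akr1d1 promoter as TTATGCAA (a match on the opposite strand) at 8 to 1 bases before it, and in 9.56% of all promoters. CAAGGTCA stood in none of the 6 promoters of these genes and in 1.33% of all. A match describes letters and does not show a bound site. The RNA of Hnf4a, which encodes HNF4, gave -0.0024 ± 0.061 on the log2 ratio scale (SE, n = 4 arrays), and that of Cebpa, which encodes C/EBPα, fell by 0.59 ± 0.06 (SE, n = 4, adjusted p = 0.0301 in limma).

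The arrays held 43020 spots each that were not controls, of which 51.0% to 58.7% were well above background in either dye and 0 were saturated. Trib1, the floxed gene, was higher rather than lower in RNA labelled AAV_Cre, by 0.94 ± 0.08 (SE, n = 4, adjusted p = 0.0204) on the probe that stood for it, and its other 2 probes had 1.29 and -0.047. A probe outside the floxed part, which the labels do not give, would not check the label. AAV_Cre and AAV_Null therefore mean below the RNA so labelled. Ratios correlated across genes at 0.67 between arrays 1 and 2, at 0.49 between arrays 3 and 4 and at 0.06 to 0.19 between the dye orientations, and genes are not independent replicates. A log2 ratio is that of AAV_Cre over AAV_Null, and an intensity is the log2 brightness of 1 dye after normalisation, in arbitrary units that do not compare probes.

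Amacr fell in AAV_Cre, and so did Slc27a5 on its brighter probe. Both serve the peroxisomal and conjugation end of the pathway, where Acox2 and Baat had 0.30 and 0.080 and did not pass. No enzyme rose. The other 8 did not pass an adjusted p of 0.05 over all genes, among them Cyp7a1, which starts the classical route, and Cyp8b1, whose log2 ratio of 0.72 was the largest of the 10 in either direction. Over the 16079 genes tested the same threshold was passed by 2.80%, with 0.976% lower and 1.83% higher in AAV_Cre. At an unadjusted p under 0.05, 3 of the 10 were higher (Cyp8b1, Akr1d1 and Acox2) and 2 lower, beside 22.6% of all genes in either direction. The median log2 ratio was 0.07 over the 10 genes and -0.00073 over all genes, and on single arrays the 10 genes had 0.14, -0.0082, 0.077 and 0.018.

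**Figure D1:**
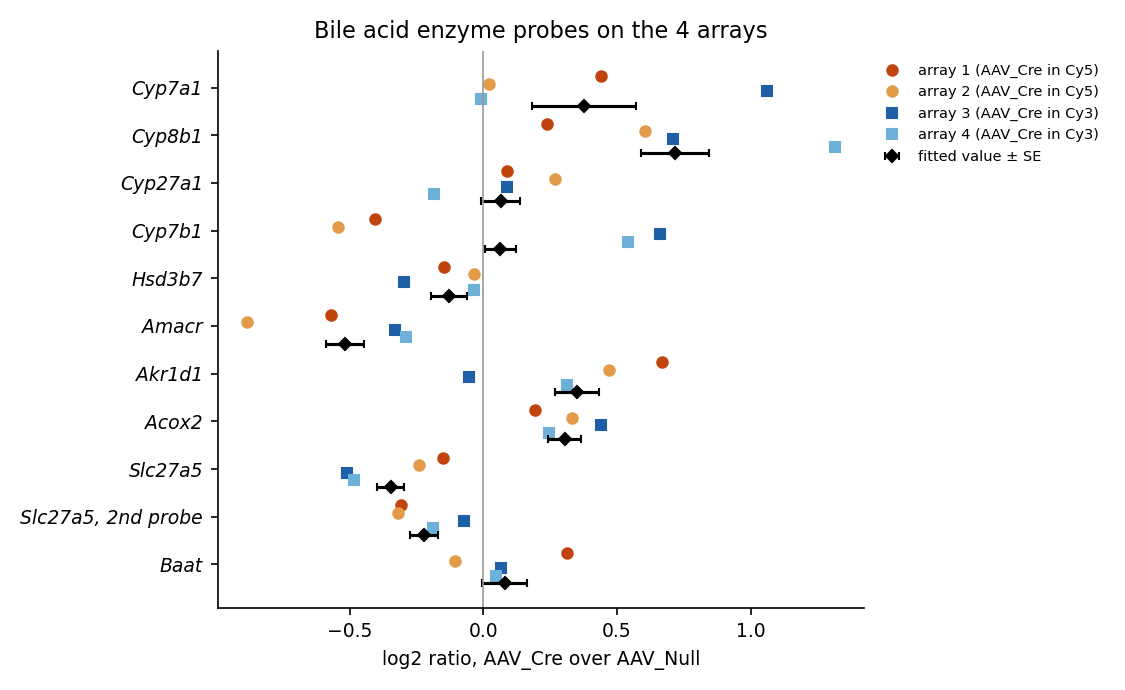
Log2 ratio of AAV_Cre over AAV_Null (x axis) for each probe of the 10 enzymes (y axis), with circles for arrays 1 and 2 (AAV_Cre in Cy5), squares for arrays 3 and 4 (AAV_Cre in Cy3) and a diamond for the fitted value ± SE. The 4 points of Amacr and of Slc27a5 lie below 0 and those of Cyp8b1 and Acox2 above 0, while those of Cyp7b1 lie on both sides by dye orientation.

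The first enzyme of the classical route, Cyp7a1, is a cholesterol hydroxylase that limits the rate of the whole pathway. Its log2 ratios were 0.44, 0.02, 1.06 and -0.011 on arrays 1 to 4. AAV_Cre intensities were 11.26, 9.10, 10.93 and 11.48, against 10.82, 9.08, 9.87 and 11.49 in AAV_Null. AAV_Cre exceeded AAV_Null on arrays 1 and 3, the 2 intensities were close to equal on arrays 2 and 4, and the groups overlapped. The fitted log2 ratio was 0.38 ± 0.19 (SE, n = 4), with a 95% interval of -0.13 to 0.89 (adjusted p = 0.330 in limma). Without array 3 it was 0.11 and without array 4 it was 0.65, so single arrays decided its size.

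Cyp7a1 also varied from array to array in both dyes together. The mean of its 2 channels was 11.04, 9.09, 10.40 and 11.48 on arrays 1 to 4, a range of 2.40 and an SD of 1.04. Of 15703 genes measured on all arrays, 99.9% had a smaller SD, and the median gene had 0.145. Cyp7b1 and Cyp8b1 followed, at SDs of 0.421 and 0.368, which exceeded those of 96.8% and 95.2% of genes, while Slc27a5 and Akr1d1 had 0.0857 and 0.0693. Each array carries 1 spot of the Cyp7a1 probe, so a difference between the spots and 1 between the RNA pairs cannot be told apart. Once each dye's mean was subtracted, the genes whose intensities over the 8 channels were most like those of Cyp7a1 were Slc44a2, Fam102b and 9030601B04Rik, with Pearson correlations of 0.987, 0.980 and 0.980. Those most like Cyp8b1 were Cdc34, Pctp and Qpct, at 0.994, 0.991 and 0.981. These were the highest of 15702 genes compared, and channels of 1 array share its hybridisation.

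The alternative route had no call. Cyp27a1, a mitochondrial sterol hydroxylase that also oxidises the side chain, had log2 ratios of 0.089, 0.27, 0.087 and -0.19 on arrays 1 to 4. AAV_Cre intensities were 10.69, 11.03, 10.88 and 10.66, against 10.60, 10.77, 10.80 and 10.85 in AAV_Null. Array 4 went against the others and the groups overlapped. Its probe is printed in 10 spots per array, whose SD within an array was 0.0322 to 0.0582, smaller than the range between arrays. The fit gave a log2 ratio of 0.064 ± 0.072 (SE, n = 4), with a 95% interval of -0.13 to 0.25 (adjusted p = 0.640 in limma).

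Cyp7b1, the oxysterol hydroxylase that takes over after Cyp27a1, had ratios of opposite sign in the 2 dye orientations. It had -0.41 and -0.54 on arrays 1 and 2, and 0.66 and 0.54 on arrays 3 and 4. AAV_Cre intensities were 13.42, 13.40, 14.37 and 13.29, against 13.83, 13.94, 13.71 and 12.75 in AAV_Null. AAV_Cre was highest on array 3, AAV_Null was lowest on array 4, and the groups overlapped. The fitted log2 ratio was 0.063 ± 0.057 (SE, n = 4), with a 95% interval of -0.09 to 0.21 (adjusted p = 0.557 in limma). Its dye effect, the part of the Cy5 over Cy3 ratio that does not follow the treatment, was -0.54 ± 0.06 (SE, n = 4, adjusted p = 0.0310). It was the only 1 of the 10 genes with a dye effect past the threshold, beside 2.84% of all genes. A dye bias of the probe and a difference between the RNA pairs of the orientations cannot be told apart, and the SE of the treatment does not hold either.

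Among the enzymes that act on the sterol rings, Hsd3b7, the steroid dehydrogenase shared by both routes, had -0.15, -0.036, -0.30 and -0.034 on arrays 1 to 4. AAV_Cre intensities were 15.99, 16.30, 16.16 and 15.79, against 16.14, 16.33, 16.46 and 15.82 in AAV_Null. The ratio was below 0 on each array, but 2 arrays were within 0.04 of it and the groups overlapped. The fit gave a log2 ratio of -0.13 ± 0.067 (SE, n = 4), with a 95% interval of -0.31 to 0.05 (adjusted p = 0.336 in limma). Akr1d1, the reductase that gives the ring system its bent shape, had 0.67, 0.47, -0.055 and 0.31. Its AAV_Cre intensities were 10.04, 10.04, 9.61 and 9.87, against 9.37, 9.57, 9.67 and 9.56 in AAV_Null. The ratio was above 0 on each array but array 3, and the groups overlapped. The fitted log2 ratio was 0.35 ± 0.084 (SE, n = 4), with a 95% interval of 0.13 to 0.57 (adjusted p = 0.109 in limma).

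Cyp8b1 is the sterol hydroxylase that sets how much cholic acid the liver makes, and with it how hydrophobic the bile acid pool is. Its log2 ratios were 0.24, 0.61, 0.71 and 1.32 on arrays 1 to 4. AAV_Cre intensities were 10.01, 10.31, 10.65 and 10.07, against 9.77, 9.70, 9.95 and 8.76 in AAV_Null. All 4 AAV_Cre values lay above all 4 AAV_Null values, and the lowest value by a wide gap was that of AAV_Null on array 4. The fit gave a log2 ratio of 0.72 ± 0.13 (SE, n = 4), or 1.64-fold, with a 95% interval of 0.39 to 1.05 (adjusted p = 0.0660 in limma). It passed in 4 of 18 alternative processings, and its adjusted p ranged from 0.00583 to 0.293. The authors' deposited table gave a mean of 0.76 for Cyp8b1, with 1.46 on array 4.

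**Figure D2:**
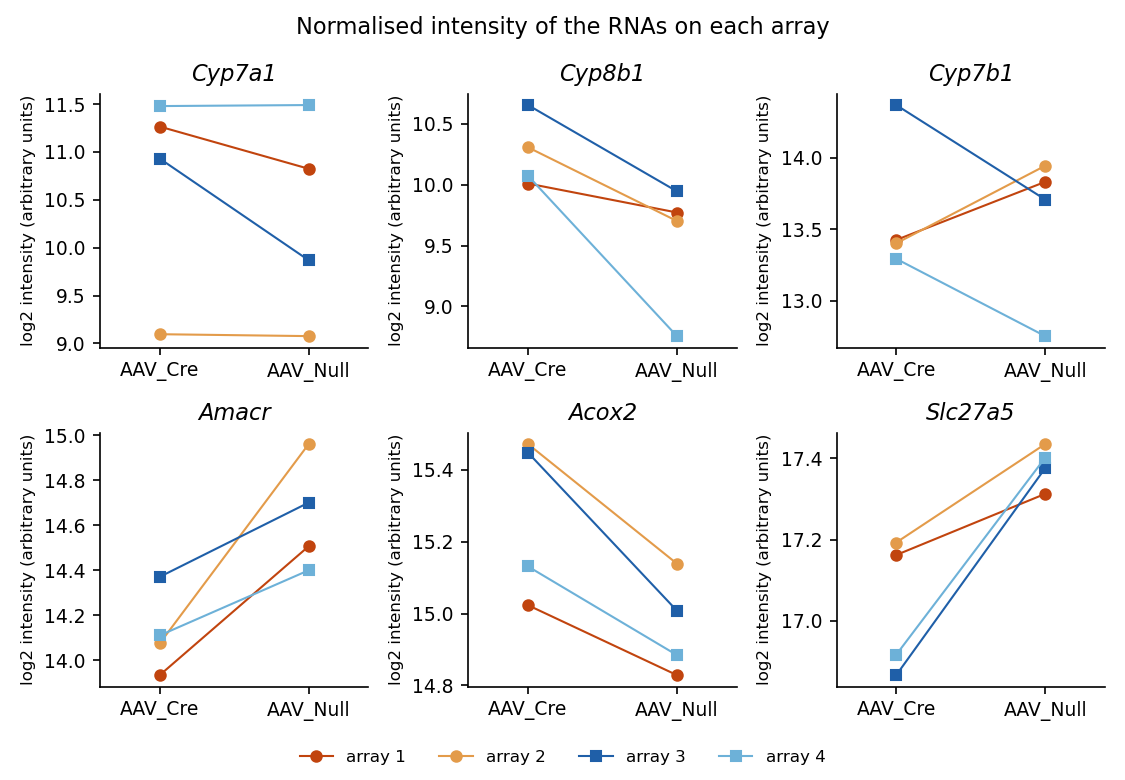
Normalised log2 intensity in arbitrary units (y axis) of AAV_Cre and AAV_Null RNA (x axis) for 6 of the enzymes, with a line joining the 2 RNAs of each array. Lines fall toward AAV_Null for Cyp8b1 and Acox2 and climb toward it for Amacr and Slc27a5 on all 4 arrays, and in Cyp7a1 the arrays lie further apart than the 2 RNAs.

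The side chain enzymes of the peroxisome went opposite ways in sign. Amacr, the racemase that turns the side chain into the form the oxidase accepts, had -0.57, -0.89, -0.33 and -0.29 on arrays 1 to 4. AAV_Cre intensities were 13.94, 14.08, 14.37 and 14.11, against 14.51, 14.96, 14.70 and 14.40 in AAV_Null. All AAV_Cre values lay below all AAV_Null values, with the closest pair being AAV_Cre on array 3 and AAV_Null on array 4. Amacr fell by 0.52 ± 0.07 (SE, n = 4) on the log2 scale, to 0.698 of the AAV_Null level, with a 95% interval of -0.70 to -0.33 (adjusted p = 0.0433 in limma). Its probe was printed in 10 spots per array, of which 9 or 10 were used, and the SD of their log2 ratios was 0.0218 to 0.0309, against ratios that ranged from -0.89 to -0.29 between arrays. The authors' deposited table gave Amacr a mean of -0.52.

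Acox2, the branched-chain acyl-CoA oxidase that acts on the side chain after Amacr, had 0.19, 0.33, 0.44 and 0.25 on arrays 1 to 4. AAV_Cre intensities were 15.02, 15.47, 15.45 and 15.13, against 14.83, 15.14, 15.01 and 14.88 in AAV_Null. The ratio was above 0 on each array, although the groups overlapped. The fitted log2 ratio was 0.30 ± 0.062 (SE, n = 4), or 1.23-fold, with a 95% interval of 0.14 to 0.47 (adjusted p = 0.0859 in limma).

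Slc27a5 and Baat carry out conjugation: Slc27a5 is a bile acyl-CoA synthetase and fatty acid transport protein, and Baat joins the bile acid to an amino acid. The brighter Slc27a5 probe had -0.15, -0.24, -0.51 and -0.49 on arrays 1 to 4. AAV_Cre intensities were 17.16, 17.19, 16.87 and 16.92, against 17.31, 17.44, 17.38 and 17.40 in AAV_Null, and the groups did not overlap. On this probe Slc27a5 fell by 0.35 ± 0.05 (SE, n = 4) on the log2 scale, to 0.786 of the AAV_Null level, with a 95% interval of -0.48 to -0.21 (adjusted p = 0.0494 in limma). The second Slc27a5 probe had -0.31, -0.32, -0.074 and -0.19. Its AAV_Cre intensities were 15.60, 15.70, 15.67 and 15.57, against 15.91, 16.02, 15.75 and 15.76 in AAV_Null, again without overlap. Its log2 ratio was -0.22 ± 0.052 (SE, n = 4, adjusted p over probes = 0.109 in limma), so it shared the sign but not the call. The larger ratios were on arrays 3 and 4 with the brighter probe and on arrays 1 and 2 with the second, and both probes measure 1 gene and are not replicates. Adjusted over all 20335 probes, 1 of the 11 probes passed, that of Amacr at 0.0469, beside 2.39% of all probes, while the brighter Slc27a5 probe had 0.0527.

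Baat had 0.31, -0.11, 0.067 and 0.047 on arrays 1 to 4. AAV_Cre intensities were 11.07, 11.00, 10.73 and 10.88, against 10.76, 11.11, 10.66 and 10.84 in AAV_Null. The signs were mixed and the groups overlapped. Its fitted log2 ratio was 0.080 ± 0.084 (SE, n = 4), with a 95% interval of -0.14 to 0.30 (adjusted p = 0.614 in limma).

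Across the 10 enzymes, 5 had the same sign on 4 of 4 arrays, namely Cyp8b1 and Acox2 above 0 and Hsd3b7, Amacr and Slc27a5 below it, beside 23.7% of all genes measured on 4 arrays. The channel intensities of 3 did not overlap between the groups, those of Cyp8b1, Amacr and Slc27a5, beside 5.88% of all such genes. All 10 were well above background in 8 of 8 channels. Between orientations, Amacr had a mean of -0.73 on arrays 1 and 2 and -0.31 on arrays 3 and 4, Slc27a5 had -0.20 and -0.50, and Cyp8b1 had 0.42 and 1.01. Acox2 differed less, with 0.26 and 0.34. The dye effect passed for none of these 4, with adjusted p of 0.164 for Amacr, 0.165 for Slc27a5, 0.230 for Cyp8b1 and 0.718 for Acox2 in limma.

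**Figure D3:**
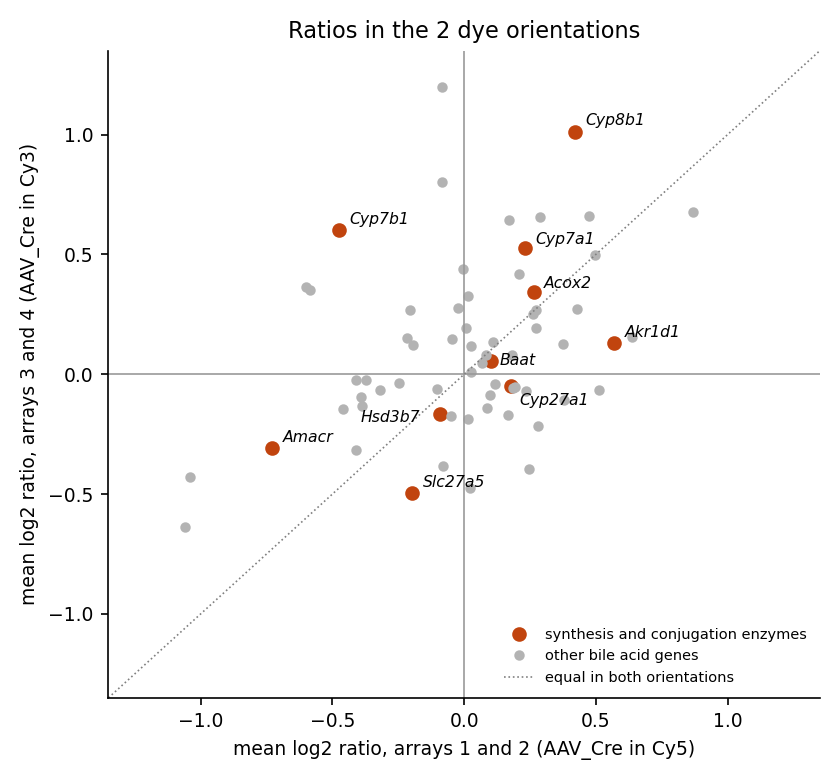
Mean log2 ratio of AAV_Cre over AAV_Null on arrays 1 and 2 (x axis, AAV_Cre in Cy5) and on arrays 3 and 4 (y axis, AAV_Cre in Cy3) for the 10 enzymes (orange, named) and the other bile acid enzymes, regulators and transporters (grey), with a dotted line where both are equal. Amacr and Slc27a5 lie in the lower left, Cyp8b1 in the upper right, and Cyp7b1 in the upper left at -0.47 and 0.60.

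The calls of Amacr and Slc27a5 lay close to the threshold. Leaving out any of the 4 arrays took both away, with adjusted p of 0.110 to 0.212 for Amacr and of 0.118 to 0.272 for Slc27a5, while the log2 ratios kept their sign at -0.60 to -0.44 and -0.37 to -0.32. Over all genes the same omissions left 14, 0, 38 and 5 calls of 451, and each leaves 1 fewer residual degree of freedom. Centring each array on its median in place of loess put Slc27a5 at -0.21 (adjusted p = 0.271), a shift of over 1.5 times, and put Cyp8b1 (adjusted p = 0.00832) and Acox2 (adjusted p = 0.0264) past the threshold.

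**Figure D4:**
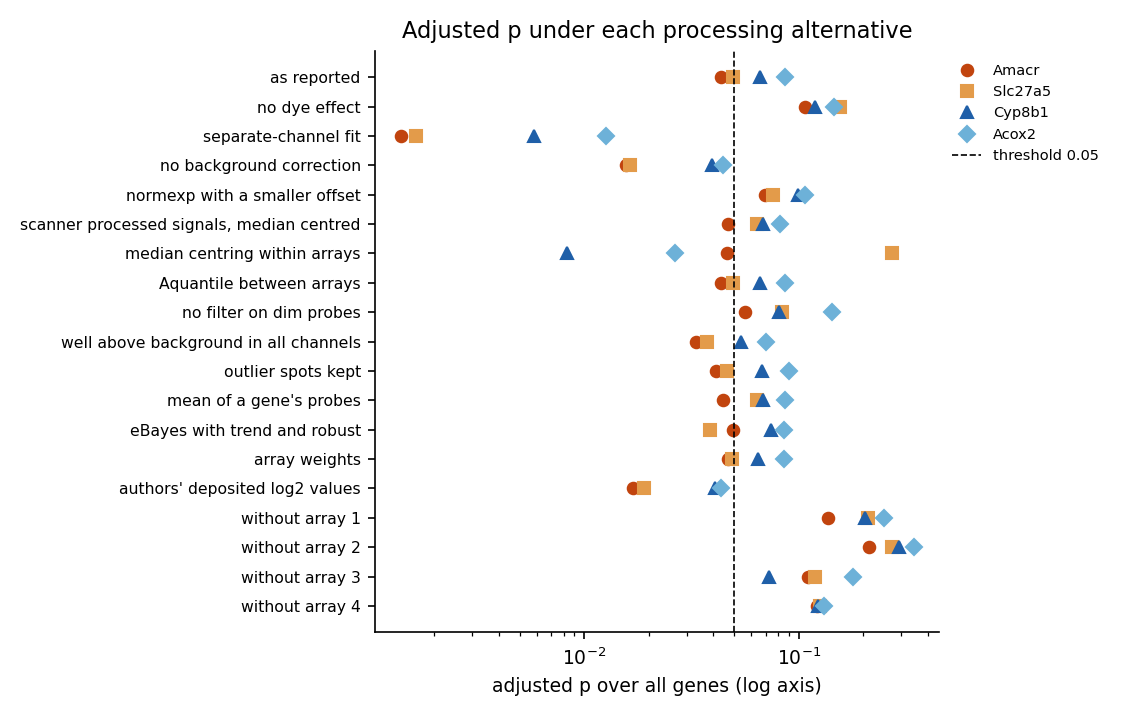
Adjusted p over all genes in limma (x axis, log scale) for Amacr, Slc27a5, Cyp8b1 and Acox2 as reported and under 18 alternatives (y axis), with the threshold of 0.05 as a dashed line. Amacr passed in 11 alternatives, Slc27a5 in 8, and Cyp8b1 and Acox2 in 4 each, and the points lie right of the line whenever an array is left out.

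Of 18 other bile acid and oxysterol enzymes tested, of 19 on the array, 1 rose, 1 fell and 16 did not pass, with a median of 0.07 (0.027 to 0.12 with an array left out, and 0.19 with median centring). Over all genes, 1.83% rose, 0.976% fell and 22.6% had an unadjusted p under 0.05 in limma. These shares stand beside the counts of this list and of the lists below. Sult2a8, a hepatic sulfotransferase that acts on bile acids in mice, fell by 0.85 ± 0.09 (SE, n = 4, adjusted p = 0.0248 in limma), with -0.93, -1.19, -0.81 and -0.47 on arrays 1 to 4. Hsd11b1, a steroid dehydrogenase that regenerates glucocorticoid, rose by 0.57 ± 0.07 (SE, n = 4, adjusted p = 0.0331), with 0.41, 0.54, 0.54 and 0.79. The peroxisomal enzymes that act after Acox2, Hsd17b4 and Scp2, had 0.065 and 0.059 and did not pass. Slc27a2, a related acyl-CoA synthetase, had -0.24 and did not pass.

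Of 24 tested genes of bile acid sensing and feedback, of 25 on the array, 3 rose, 0 fell and 21 did not pass, with a median of 0.02 (0.011 to 0.026 with an array left out). Nfil3, a repressor of the clock output, rose by 0.77 ± 0.08 (SE, n = 4, adjusted p = 0.0294 in limma). Nr1i2, the xenobiotic and bile acid receptor PXR, rose by 0.50 ± 0.07 (SE, n = 4, adjusted p = 0.0492). Onecut1, a hepatic transcription factor, rose by 0.56 ± 0.05 (SE, n = 4, adjusted p = 0.0211), although its mean was -0.083 on arrays 1 and 2 against 1.20 on arrays 3 and 4. The FXR gene Nr1h4 had 0.41 at an adjusted p of 0.0505, with 0.16, 0.18, 0.76 and 0.53 on arrays 1 to 4. Fgfr4 had -0.36 at an adjusted p of 0.0531, below 0 on 4 of 4 arrays. Neither passed, and nor did Nr0b2 at -0.23 or Nr5a2, an activator of Cyp7a1 and Cyp8b1, at -0.26. Fgf15 was on the array but not among the genes tested.

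Of 14 tested bile acid and biliary lipid transporters, of 15 on the array, 1 rose, 0 fell and 13 did not pass, with a median of 0.17. That median was 0.012 without array 3, 0.094 without array 1 and 0.27 without array 4. Abcg5, which exports sterols into bile, rose by 0.47 ± 0.07 (SE, n = 4, adjusted p = 0.0494 in limma), and its partner Abcg8 had 0.31 at 0.0698. Slco1a1, an organic anion carrier that takes up bile acids, had the largest ratio of the list at -0.73 ± 0.11 (SE, n = 4, adjusted p = 0.0507), with -0.87, -1.21, -0.68 and -0.17 on arrays 1 to 4, and did not pass. The bile acid uptake carrier Slc10a1 had -0.23, the export pump Abcb11 had -0.027 on the 3 arrays that measured it, and neither passed. Of 14 peroxisome biogenesis genes, 1 rose and 0 fell, with a median of 0.11 (0.074 to 0.16 with an array left out). Pex16, an early factor of peroxisome assembly, rose by 0.34 ± 0.05 (SE, n = 4, adjusted p = 0.0490), with a mean of -0.084 on arrays 1 and 2 against 0.76 on arrays 3 and 4. Pex11a had the largest ratio of that list at 0.75 (adjusted p = 0.0738 in limma), above 0 on 4 of 4 arrays, and did not pass. Of 19 genes of cholesterol synthesis and its control, which precede the pathway, 0 rose and 1 fell, with a median of -0.09, which was -0.25 without array 2, -0.15 without array 4 and 0.0068 without array 1. Idi1, an isomerase of the mevalonate pathway, fell by 0.50 ± 0.07 (SE, n = 4, adjusted p = 0.0440).

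**Figure D5:**
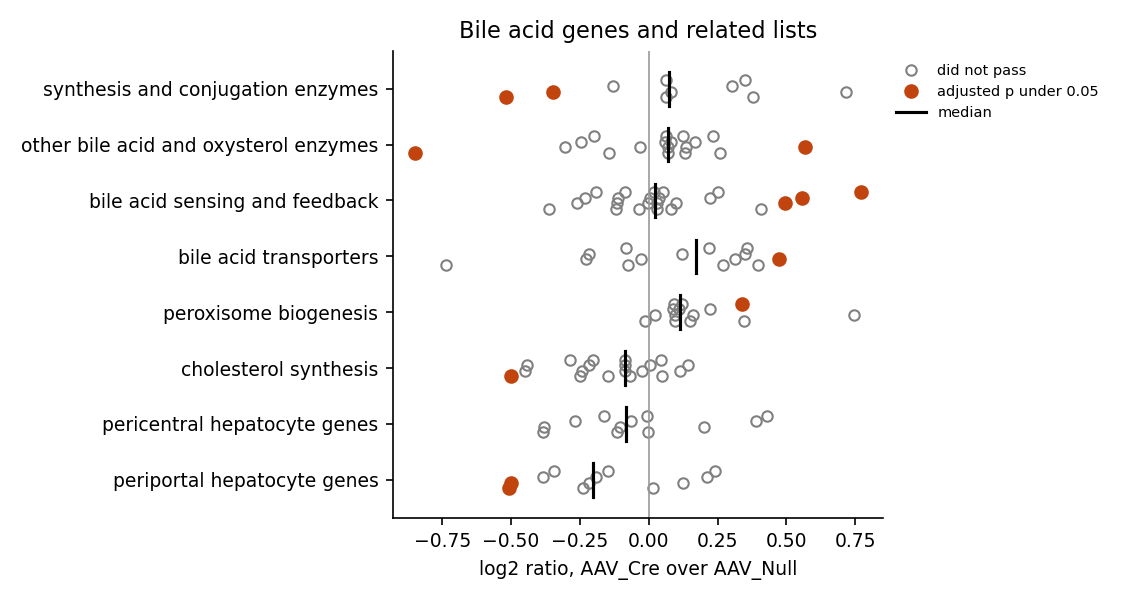
Log2 ratio of AAV_Cre over AAV_Null (x axis) of each tested gene in 8 lists (y axis), filled where the adjusted p was under 0.05, with a bar at the list's median. The 10 synthesis and conjugation enzymes have 2 filled points, both below 0, and a median of 0.07.

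Bile acid synthesis differs along the liver lobule in mice, and Cyp7a1 is known from hepatocytes near the central vein. Of 12 tested pericentral genes 0 passed in limma, with 5 at an unadjusted p under 0.05 and a median of -0.083 that ran from -0.0058 without array 3 to -0.16 without array 4. Gulo, of vitamin C synthesis, had -0.38 at an adjusted p of 0.0608. Those 5 were split in sign: Cyp1a2 and Oat had 0.39 and 0.43, and the rest, Gulo among them, had fitted values below 0. Of 12 periportal genes 0 rose and 2 fell, beside 0.976% of all genes lower. The median was -0.20, or -0.13 without array 2. At an unadjusted p under 0.05 there were 7, beside 22.6% of all genes. Of these 7, Cps1 and Arg1 had 0.24 and 0.21, above 0 on 4 of 4 arrays, and the rest had fitted values below 0. The serine dehydratase Sds fell by 0.51 ± 0.07 (SE, n = 4, adjusted p = 0.0430), and its paralog Sdsl by 0.50 ± 0.06 (SE, n = 4, adjusted p = 0.0394).

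In whole liver, fewer cells of a type and less RNA per cell cannot be told apart. All 15 hepatocyte markers were tested, 0 rose and 2 passed as lower, Trf by 0.51 and Apoa2 by 0.36. In limma, 6 of the 15 had an unadjusted p under 0.05, beside 22.6% of all genes. Trf and Apoa2 had means of 0.33 and 0.35 on arrays 1 and 2, against -1.35 and -1.07 on arrays 3 and 4. The median of the 15 markers was -0.22, or 0.33 on arrays 1 and 2 against -0.58 on arrays 3 and 4. The log2 of their summed intensity, which rests mostly on the brightest probes, was 20.90 to 21.71 in AAV_Cre and 21.34 to 21.74 in AAV_Null. Of 11 tested stellate cell markers, of 13, 1 rose, the collagen Col3a1 by 0.47 ± 0.06 (SE, n = 4, adjusted p = 0.0433), with a log2 summed intensity of 15.89 to 16.26 in AAV_Cre and 15.52 to 16.08 in AAV_Null. At an unadjusted p under 0.05 in limma there were 5, Col3a1, Col1a1, Col1a2, Dcn and Lum, all with fitted values above 0. The median of the 11 was 0.23, or 0.32 on arrays 1 and 2 against 0.11 on arrays 3 and 4. Ngfr and Tagln had fitted values below 0. No tested marker passed among 4 of cholangiocytes, 14 of macrophages, 14 of endothelium, 5 of T and natural killer cells, 5 of B cells, 7 of neutrophils and 4 of erythroid cells in limma, where 1, 2, 7, 0, 1, 1 and 0 had an unadjusted p under 0.05. The cholangiocyte markers Krt7 and Epcam were on the array but not among the genes tested. The marker of smallest p in these lists had 0.22 for Sox9, -0.59 for Marco, -0.35 for Clec4g, 0.21 for Cd3d, 0.14 for Cd79a, -0.15 for Csf3r and -0.33 for Hbb-b2. The part of these cell types in the values of Amacr and Slc27a5 was not tested.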

How the data were processed

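Total RNA of whole liver was measured on 4 two-colour arrays of 1 slide, with no RNA used on more than 1 array, per the labels. Their protocols describe 2 ways of labelling, from 200 ng with a low input kit and from a larger amount, and do not say which applies. The 10 enzymes and the gene lists were chosen with earlier results of these data known, and list counts are descriptions with no list test.

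The deposited spot intensities and local backgrounds of both dyes were measured with Agilent Feature Extraction (version 11.5.1.1), as stated per the file headers. The deposited log10 ratio, Cy5 over Cy3, was taken by that software from background-subtracted, dye-normalised signals. The log2 table deposited by the authors was made in steps not given in the sources used here. The submitters' processing notes name limma with no version. Against the scanner log10 ratio, for signals above 2000, its slopes were 3.34, 3.33, -3.29 and -3.39 on arrays 1 to 4 (the log2 of 10 is 3.32), so it is AAV_Cre over AAV_Null on a log2 scale under the labels' dyes. The array medians were -0.022, -0.038, 0.035 and 0.041, and its centring is unknown. Of its 43173 rows, 2 were not in the scanner files.

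Mean intensities were corrected with normexp (offset 50) and normalised by loess within arrays in limma 3.58.1 under R 4.3.3, with control and outlier spots at weight 0. Outlier spots were dropped unless a probe would lose all arrays, and replicate spots were averaged. There were 39429 probes, of which 20585 exceeded background well in at least 3 of the 4 channels of either treatment, 20335 of these could be fitted on at least 3 arrays, and the brightest probe stood for each of 16079 genes. Log2 ratios were fitted with dye and treatment effects by lmFit and eBayes (at most 2 residual and 2.67 prior degrees of freedom), with Benjamini-Hochberg adjustment and a threshold of 0.05. Precision is limited by the number of arrays, 4, with a median SE of 0.0633. The channel intensities are from loess and Aquantile. Probe symbols were updated through RefSeq of GRCm38.p6, matching 27508 probes on accession and 404 on a synonym, while 3544 were current and 7973 kept the array's name. Named genes were the 10 enzymes, up to 3 called genes of largest change per list (or the smallest p), 3 genes most like Cyp7a1 and Cyp8b1, Trib1 and Cebpa. Further list members were picked with their values in view. Scripts were tested on simulated data. Alternatives changed the dye effect, background, normalisation, filters, probes, empirical Bayes settings, threshold (0.1 and 0.01) and arrays, with a separate-channel fit (statmod 1.5.0). Figures used matplotlib 3.10.9.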

Additional observations from a re-analysis of the deposited data

Results flagged for a closer look

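Among the genes given values in the text, the log2 ratio of 8 differed between the dye orientations, by the fitted dye effect or because the signs were opposite on arrays 1 and 2 against arrays 3 and 4. Each difference below is the mean of arrays 3 and 4 minus that of arrays 1 and 2, and a dye bias of the probe and a difference between the RNA pairs cannot be told apart. For Cyp7b1 it was 1.08, from means of 0.60 and -0.47, with a dye effect at an adjusted p of 0.0310 in limma. It was 1.28 for Onecut1 (adjusted p = 0.0230), 0.845 for Pex16 (0.0342), -1.68 for Trf (0.0248) and -1.43 for Apoa2 (0.0230), and all 4 of these were called for treatment. For Cd3d it was 0.739 (0.0958), for Cd79a -0.621 (0.0612) and for Hnf4a -0.337 (0.181), where the signs were opposite and the dye effect did not pass. Over all genes tested, 456 had a dye effect past the threshold.

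On the Cyp7b1 probe, the AAV_Cre intensity of array 3 stood apart at 14.37 on the log2 scale, against 13.29 to 13.42 on the other arrays. The log2 ratio of Fgfr4 stood apart on array 1 at -0.49, against -0.33 to -0.31, and that of Nr5a2 on array 4 at 0.056, against -0.40 to -0.32. These were 3 such values among 73 sets of arrays looked at, where chance gives about 3.65.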

How the results depend on the processing

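Of the 10 enzymes, 0 rose and 2 fell as reported. The count that fell was 0 without a dye effect, 0 with a smaller normexp offset (16), 1 with the scanner's processed signals, 1 with median centring, 0 with no filter on dim probes, 1 with the mean of a gene's probes, 0 with each array left out in turn (0 to 0) and 0 at a threshold of 0.01. The count that rose was 3 with a separate-channel fit (correlation between channels 0.772), and 2 each with no background correction, with median centring, with the authors' deposited log2 values and at a threshold of 0.1. The 1 probe called became 0 without a dye effect, with a smaller offset, with no filter, with array weights, with any array left out and at a threshold of 0.01, 2 with well above background required in all channels or with outlier spots kept, 3 with median centring, 4 with no background correction, with the authors' values or at a threshold of 0.1, and 6 in the separate-channel fit. The 1 dye effect became 0 with a smaller offset, with trended and robust eBayes, with any array left out and at a threshold of 0.01, 2 in the separate-channel fit and 3 with median centring. Calls over all genes, 451 as reported, were 286 without a dye effect, 2510 in the separate-channel fit, 1411 with no background correction, 200 with a smaller offset, 772 with processed signals, 765 with median centring, 288 with no filter, 1382 with the authors' values, 0 to 38 with an array left out, 1307 at a threshold of 0.1 and 12 at 0.01. The separate-channel fit split its calls into 1305 higher and 1205 lower, against 294 and 157 as reported. Baat ranged from -0.024 (without array 1, a changed sign) to 0.18 with an array left out, and Cyp27a1 from -0.0043 (without array 3, a changed sign) to 0.13, neither called, and no other enzyme changed sign in the 18 alternatives. The cause of these changes was not tested. Leaving out an array changes both the values used and the residual degrees of freedom, and these were not separated. The log2 ratios as reported are already paired by array, since each array holds 1 RNA of each treatment, and the separate-channel fit treats the array as a random block instead. Of 126 values of the list medians under the alternatives, 4 moved by more than the spread between arrays, 3 of them for the transporters.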
